A study of Mus musculus with 2 samples.

Results

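Lysosomal enzymes and membrane proteins were compared between osteoblastic cells lacking the transcription factor Ebf2 (Ebf2-/-) and heterozygous cells (Ebf2+/-). The group was defined as 30 named genes, taken where a probe set (a group of short oligonucleotides against 1 transcript) was annotated with exactly 1 gene symbol. This gave 62 probe sets for 29 of the 30 genes, out of 18194 genes on the array. Cd63, a tetraspanin of lysosomal membranes, had no such probe set and was not analysed here. All 29 genes were above background on both arrays.

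The cells came from the tibia and femur of C57Bl/6 embryos at E18.5. They carried lacZ at the Ebf2 locus in both genotypes, were loaded with FDG (a fluorogenic substrate of beta-galactosidase), sorted for that marker and then expanded in culture without passaging. There was 1 Affymetrix array for Ebf2-/- and 1 for Ebf2+/-. The labels name 3 mice for each genotype without saying whether their RNA was pooled, and the study holds no wild-type array. The sorted and cultured population is described in the labels as a preparation, not as a pure cell type. Every value below is a single measurement, with no replicate check and no test, and "lower" or "higher" refers to these 2 arrays.

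Lysosomes are acidic compartments in which proteases (the cathepsins and others), glycosidases and lipases take apart material delivered from outside or inside the cell. Highly glycosylated membrane proteins line them, a proton pump acidifies them, and mannose 6-phosphate receptors bring newly made enzymes to them. Most of these proteins are made by every cell. Some cathepsins, above all cathepsin S, are concentrated in macrophages and other leukocytes, while cathepsin K is the matrix-degrading protease of osteoclasts and is also made by some mesenchymal cells. Many lysosomal genes are bound by the transcription factor TFEB at a palindromic sequence known as the CLEAR element, which has CACGTG at its centre.

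Most lysosomal genes had nearly equal signals in Ebf2-/- and Ebf2+/- cells, and a small number had much lower signals in Ebf2-/-. Of the 29 genes, 4 were at least 2-fold lower in Ebf2-/- (Ctss, Ctsc, Lgmn and Psap), 1 was at least 2-fold higher (Ctsf) and 24 differed by less. Among all 11785 genes measured, 3.46% were at least 2-fold lower in Ebf2-/- and 6.30% at least 2-fold higher, 9.76% in either direction. These genes were dimmer, with a median Ebf2-/- signal of 132 against 579 for the 29, and 10057 were above background on both arrays. For 609 others, above background on only 1 array by too little for a fold, no difference past 2-fold was counted. The median log2 ratio of Ebf2-/- over Ebf2+/- was -0.04 over the 29 genes and 0.03 over all measured genes. The quartiles of the 29 genes were -0.46 and 0.22, and those of all measured genes -0.30 and 0.38. Signals of the 29 genes ran from 72.5 to 3977 on the Ebf2-/- array and from 57.1 to 3430.3 on the Ebf2+/- array, above the background floors of 23.8 on the Ebf2-/- and 17.8 on the Ebf2+/- array. Psap and Ctsf lay nearest to the 2-fold size from outside, at log2 ratios of -1.09 and 1.05, and Gusb and Gaa nearest from inside, at -0.63 and 0.65.

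**Figure D1:**
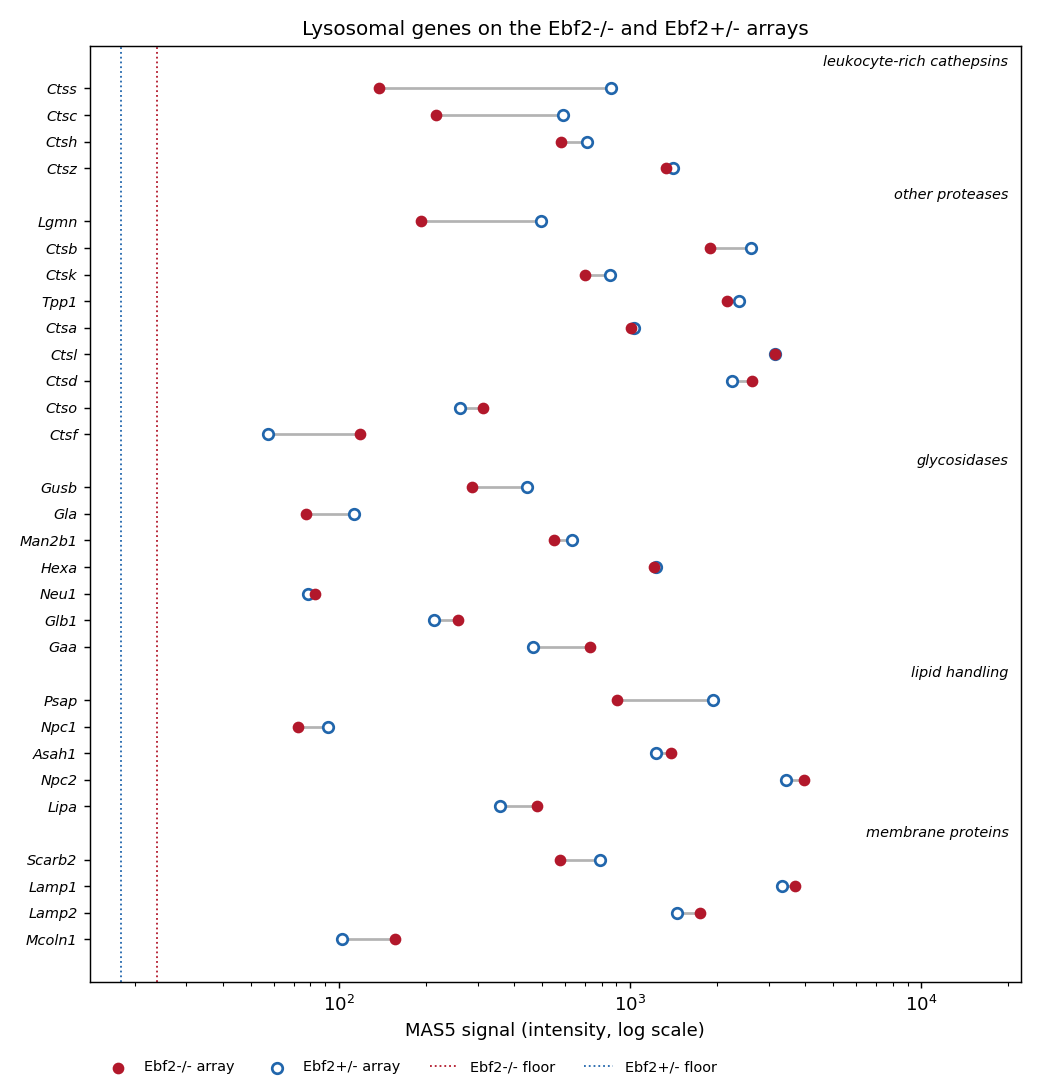
MAS5 signal (log axis) of the 29 lysosomal genes on the Ebf2-/- array (filled red) and the Ebf2+/- array (open blue), by role, with the background floor of each array as a dotted line. The 2 points of a gene mostly lie close together; Ctss, Ctsc, Lgmn and Psap lie well to the left on the Ebf2-/- array, and Ctsf to the right. Signals of different genes come from different probe sets and are not comparable with each other.

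The members were not chosen by promoter sequence. CACGTG was looked for because the CLEAR element is known from lysosomal genes, so a raised share among them was likely beforehand. Promoter sequence (250 bases before to 50 after the annotated start, RefSeq, GRCm38.p6) was found for 26 of the 30 genes, 29 promoters in all. CACGTG, the same on both strands, was present for 10 of the 26 genes (Ctsa, Ctsd, Ctsf, Ctsl, Gaa, Gla, Glb1, Lamp1, Lgmn and Mcoln1), or 34.5% of their promoters, against 7.15% of all 32851 promoters. TCACGTGA, a longer form that contains CACGTG and also reads the same on both strands, was present for 4 genes (Ctsa, Ctsd, Gla and Mcoln1), 13.8% of their promoters against 0.974% of all. Base composition was not matched in these shares. Windows of 5 of these genes, all within 2-fold between the genotypes, are shown for the arrangement of this shared sequence. In them, each of 100 bases and given 5′ to 3′ on the gene's own strand, capitals mark CACGTG. The windows of Lamp1, Mcoln1, Ctsa and Glb1 end at the base before the start, and that of Ctsd begins 140 bases before it.
Lamp1, chr8:13159061-13159160 (plus strand): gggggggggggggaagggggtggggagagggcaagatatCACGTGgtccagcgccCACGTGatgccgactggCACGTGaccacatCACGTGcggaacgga
Mcoln1, chr8:3500419-3500518 (plus strand): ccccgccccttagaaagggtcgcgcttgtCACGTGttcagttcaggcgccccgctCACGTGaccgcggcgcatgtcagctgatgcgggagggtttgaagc
Ctsd, chr7:142387868-142387967 (minus strand): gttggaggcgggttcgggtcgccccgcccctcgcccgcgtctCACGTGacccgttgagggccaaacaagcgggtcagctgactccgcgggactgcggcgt
Ctsa, chr2:164833673-164833772 (plus strand): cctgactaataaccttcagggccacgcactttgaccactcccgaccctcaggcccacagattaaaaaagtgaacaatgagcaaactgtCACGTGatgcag
Glb1, chr9:114400978-114401077 (plus strand): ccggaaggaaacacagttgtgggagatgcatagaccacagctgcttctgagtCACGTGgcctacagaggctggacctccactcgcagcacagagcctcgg
Lamp1 held 4 copies of CACGTG within 61 bases of its start, and Mcoln1 held 2. Ctsa and Ctsd each held a further copy outside the window shown. Over the members with a probe set and a promoter, the log2 ratios of the 10 with CACGTG had a median of 0.18 (from -1.37 to 1.05), and those of the 15 without it a median of -0.14 (from -2.64 to 0.42). The ranges overlap, and a sequence match is not evidence that a factor is bound.

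The cathepsins known to be abundant in leukocytes did not share a common ratio. Ctss, Ctsc, Ctsh and Ctsz had log2 ratios from -2.64 to -0.08 with a median of -0.87, and the other 25 lysosomal genes a median of -0.0026, a difference of -0.87. That median lies between a low pair and a pair near 0, so it describes none of the 4 genes. It was -0.35 when all probe sets of a gene were averaged, and -0.97 when only those above the floor on both arrays were. It was -1.45 without probe sets whose names end in _s_at, _x_at or _a_at (designs that can match more than 1 transcript), which removes Ctsz.

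Ctss, cathepsin S, which trims the invariant chain for antigen presentation, read 137 on the Ebf2-/- array and 859 on the Ebf2+/- array. This 6.25-fold lower signal (log2 ratio -2.64) was the largest difference of the 29 genes, and only 0.144% of all measured genes had a lower ratio. Ctss is represented by 1 probe set, so no second probe set checks it. Ctsc, cathepsin C, an exopeptidase that activates the granule serine proteases of leukocytes, read 215.5 in Ebf2-/- and 589.97 in Ebf2+/- cells, 2.74-fold lower. Its other probe sets were uninformative: the first read 23.9 in Ebf2-/- and 17.4 in Ebf2+/- cells, at the floors, and the last 6.77 in Ebf2-/- and 12.1 in Ebf2+/- cells, below them. Averaged with these, the log2 ratio of Ctsc was -0.20, and it was -1.45 by the bright probe set.

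The remaining leukocyte-rich cathepsins differed little. Ctsh, cathepsin H, an aminopeptidase, read 579 in Ebf2-/- and 711 in Ebf2+/- cells (log2 ratio -0.30), and by its other probe set 177 in Ebf2-/- and 286 in Ebf2+/- cells (-0.69). Ctsz, cathepsin Z, a carboxypeptidase, read 1329 in Ebf2-/- and 1408 in Ebf2+/- cells. The 3 probe sets of Ctsz gave log2 ratios from -0.08 to 0.17, all within the error between probe sets of one gene. That error, the pooled SD of log2 ratios between probe sets of the same gene, was 0.44 over 4119 genes and 0.35 over the 13 lysosomal genes with several probe sets above background, and it holds no variation between animals or cultures.

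The promoters of Ctss and Ctsc, the leukocyte-rich cathepsins with the lowest ratios, held no CACGTG but shared GAGGAAGT, a purine-rich sequence of the kind bound by PU.1 and other ETS-family factors. It was searched on both strands after the signals had been seen, does not overlap with CACGTG, and was present in 3.20% of all promoters. Among the lysosomal genes it was also found for Gla and Gusb, whose log2 ratios were -0.55 and -0.63. The promoter of Ctsz lacked it, that of Ctsh was not analysed here, and 1 of 14 promoters of the macrophage and leukocyte markers (that of C1qc) held it, 7.14%. In the windows below, capitals mark GAGGAAGT, which here lies on the opposite strand and so appears as ACTTCCTC. The Ctss window runs from 80 bases before to 20 after the start, and the Ctsc window begins 197 bases before its start.
Ctss, chr3:95526706-95526805 (plus strand): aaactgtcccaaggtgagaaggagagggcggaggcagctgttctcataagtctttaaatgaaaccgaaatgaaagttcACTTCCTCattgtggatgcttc
Ctsc, chr7:88277888-88277987 (plus strand): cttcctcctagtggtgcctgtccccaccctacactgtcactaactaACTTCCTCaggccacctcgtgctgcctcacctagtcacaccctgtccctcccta
Spi1, the gene of PU.1 itself, read 42.3 in Ebf2-/- and 45.5 in Ebf2+/- cells, close to background on both arrays. No binding was measured, and the match is a description only.

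Markers of macrophages and leukocytes, a list chosen with earlier results of these data known, also had lower signals in Ebf2-/-. Of 20 listed markers, 19 were above background on at least 1 array. All 19 were lower in Ebf2-/- and 18 of them by at least 2-fold (median log2 ratio -2.15). The count past 2-fold was 16 with a pseudocount of 50 and 17 with the mean over all probe sets. Among all measured genes 47.9% had a ratio below 0 and 3.46% were at least 2-fold lower. The summed signal of the 19 markers was 2379 in Ebf2-/- and 9785 in Ebf2+/- cells, 4.11-fold lower. Of the defining markers, Ptprc (CD45) read 27.5 in Ebf2-/- and 205 in Ebf2+/- cells, while Csf1r, the macrophage growth factor receptor, read 405 in Ebf2-/- and 1529 in Ebf2+/- cells. Of the remaining defining markers, Itgam was below the floor on both arrays. Spi1 was nearly level and close to background, with 42.3 in Ebf2-/- and 45.5 in Ebf2+/- cells (log2 ratio -0.10). By the brightest probe sets and without a pseudocount, Spi1 was thus the measured marker that fell short of 2-fold. Itgb2, a leukocyte integrin chain, had the lowest ratio of the markers (26.4 in Ebf2-/- and 226 in Ebf2+/- cells). The Ebf2-/- signals of Itgb2 and Ptprc lay close to the floor of 23.8, so the size of both ratios depends on the processing. Adding the pseudocount of 50 moved Itgb2 from -3.10 to -1.85, above C1qb at -2.02. The same setting moved Ptprc from -2.90 to -1.72. Averaging all probe sets of Ptprc gave -1.24, and averaging only those above the floor on both arrays gave -2.90. Both genes stayed at least 2-fold lower in Ebf2-/-. Lyz2, lysozyme, read 702 in Ebf2-/- and 2780.1 in Ebf2+/- cells. The log2 ratios of the 19 markers ran from -3.10 to -0.10 (Spi1). The next highest was that of Aif1 at -1.06, whose Ebf2-/- signal was below the floor. Only through Spi1 did the range hold lysosomal genes that differed little, such as Ctsk (-0.29). The ratio of Ctss lay below the markers' median, and those of Ctsc, Lgmn and Psap above it. The part of leukocyte RNA in the ratios of these 4 genes was not tested, and in a bulk sample fewer cells of a type and less RNA per cell cannot be told apart. Of 10 osteoclast markers 7 were below the floor on both arrays, among them Acp5, Calcr, Ocstamp and Mmp9. The 3 measured did not share a direction: Nfatc1 read 42.7 in Ebf2-/- and 101 in Ebf2+/- cells, Itgb3 read 44.8 in Ebf2-/- and 25.3 in Ebf2+/- cells, and Tcirg1, a proton pump subunit, read 153 in Ebf2-/- and 136 in Ebf2+/- cells. The log2 ratio of Nfatc1 was -1.24, but -0.71 with a pseudocount of 50. As a mean it was -0.20 over all its probe sets and -0.56 over those above the floor on both arrays. Of the 9 osteoblast markers 5 were measured, and 4 of them had the higher signal in Ebf2-/-. The median log2 ratio of the measured ones was 0.80, and from 0.48 to 0.80 over the alternative settings. Runx2, Bglap and Spp1 had no probe set with exactly 1 gene symbol. Col1a1, a collagen chain, read 12784 in Ebf2-/- and 5478 in Ebf2+/- cells (log2 ratio 1.22, but 0.37 as a mean over its probe sets), and Sparc, a matrix protein, read 17570.4 in Ebf2-/- and 12049 in Ebf2+/- cells. Alpl, alkaline phosphatase, was dim, with 51.8 in Ebf2-/- and 25.4 in Ebf2+/- cells (log2 ratio 1.03, but 0.43 with a pseudocount of 50). Sp7, an osteoblast transcription factor, read 53.3 in Ebf2-/- and 83.7 in Ebf2+/- cells, and Ibsp was below the floor on both arrays. The part of the osteoblast markers' difference in the lysosomal ratios was not tested.

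**Figure D2:**
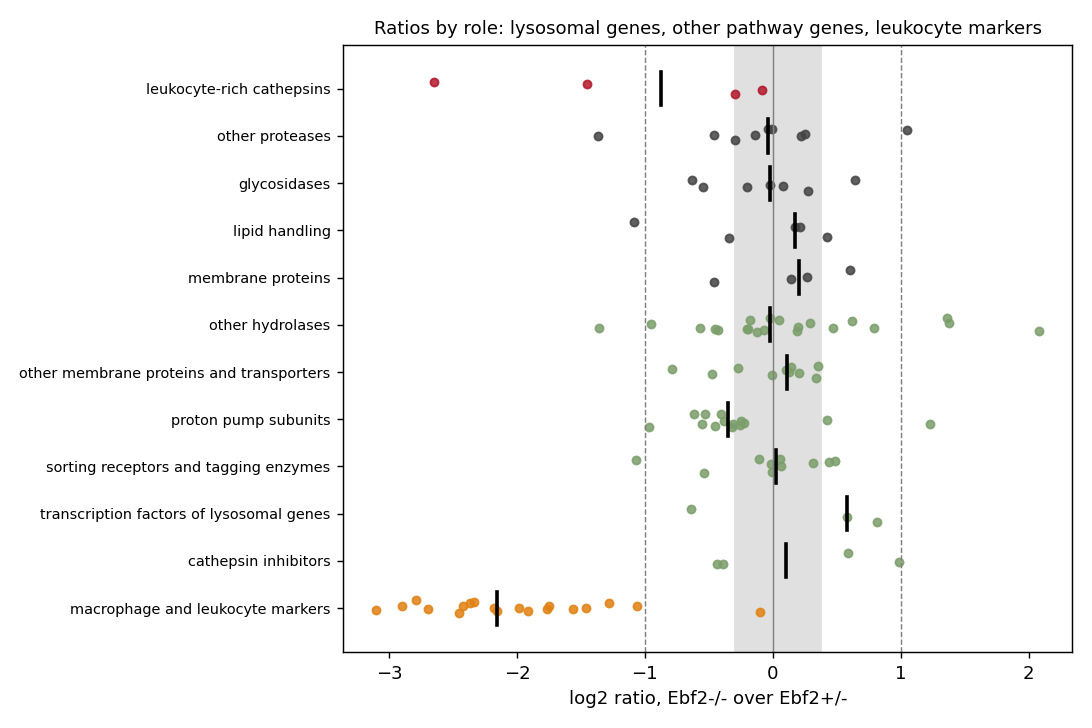
Log2 ratio of Ebf2-/- over Ebf2+/- signal for the lysosomal genes by role (red and dark grey), other genes of the lysosomal pathway (green) and macrophage and leukocyte markers (orange); black bars are medians, dashed lines the 2-fold size, and the shaded band the quartiles of all measured genes (-0.30 to 0.38). The markers lie to the left with a median of -2.15, and most lysosomal genes lie in or near the band.

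Among the other lysosomal proteases, Lgmn stood apart from the rest. Lgmn encodes legumain, an asparaginyl endopeptidase that processes cathepsins. It read 191 in Ebf2-/- and 494 in Ebf2+/- cells, 2.58-fold lower (log2 ratio -1.37), on 1 probe set. RefSeq lists 2 starts for Lgmn, and a promoter of it holds CACGTG, shown here in capitals in the 100 bases before that start because Lgmn combines this sequence with a lower signal.
Lgmn, chr12:102439093-102439192 (minus strand): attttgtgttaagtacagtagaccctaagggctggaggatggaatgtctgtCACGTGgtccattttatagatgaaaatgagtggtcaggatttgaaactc

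The broadly made proteases were nearly level by their brightest probe sets. Ctsl, cathepsin L, read 3145 in Ebf2-/- and 3151 in Ebf2+/- cells. Ctsd, cathepsin D, the main aspartic protease of lysosomes, read 2621 in Ebf2-/- and 2246 in Ebf2+/- cells (log2 ratio 0.22). Ctsa, which protects beta-galactosidase and neuraminidase in a complex, read 1009 in Ebf2-/- and 1037 in Ebf2+/- cells. By these probe sets the 3 genes differed by less than the error between probe sets, while a dim second probe set of Ctsa read 29.5 in Ebf2-/- and 20.8 in Ebf2+/- cells (0.50). Tpp1, tripeptidyl peptidase, read 2154 in Ebf2-/- and 2366 in Ebf2+/- cells, and by its second probe set 386 in Ebf2-/- and 532 in Ebf2+/- cells (-0.46). Ctso also differed by less than that error, with 313 in Ebf2-/- and 262 in Ebf2+/- cells.

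Cathepsin K, the collagen-degrading protease, also differed little. Ctsk read 699.96 in Ebf2-/- and 858 in Ebf2+/- cells (log2 ratio -0.29). Ctsk and Ctss are neighbouring protein-coding genes on chromosome 3 and close relatives within the papain family, yet their log2 ratios were -0.29 and -2.64. Ctsf, cathepsin F, was the 1 gene at least 2-fold higher, with 118 in Ebf2-/- and 57.1 in Ebf2+/- cells (2.07-fold). Ctsf is dim, at 4.96 times the floor in Ebf2-/- and 3.20 times the floor in Ebf2+/- cells, and its log2 ratio was under 2-fold with a pseudocount of 50 (0.65), as a mean over its probe sets (0.73) and when the arrays were scaled to bacterial and phage spike-in transcripts (0.92). The other probe set in that mean was below both floors, at 2.81 in Ebf2-/- and 0.71 in Ebf2+/- cells, and entered it at the ratio of the floors.

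Ctsb, cathepsin B, gave different answers by probe set. Its brightest probe set read 1890.2 in Ebf2-/- and 2599.5 in Ebf2+/- cells (log2 ratio -0.46), and the next read 940.1 in Ebf2-/- and 1243 in Ebf2+/- cells (-0.40). The dimmer ones read 135 in Ebf2-/- and 364 in Ebf2+/- cells (2.71-fold lower), and 80.8 in Ebf2-/- and 244 in Ebf2+/- cells (3.02-fold lower). All 4 were lower in Ebf2-/-, but only the dimmer pair passed 2-fold, and the mean over the 4 was -0.97. RNA integrity, read from the 3′ over 5′ ratio of the beta-actin controls, also differed between the arrays (2.79 in Ebf2-/- and 1.97 in Ebf2+/-), and its part in the disagreement was not tested.

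**Figure D3:**
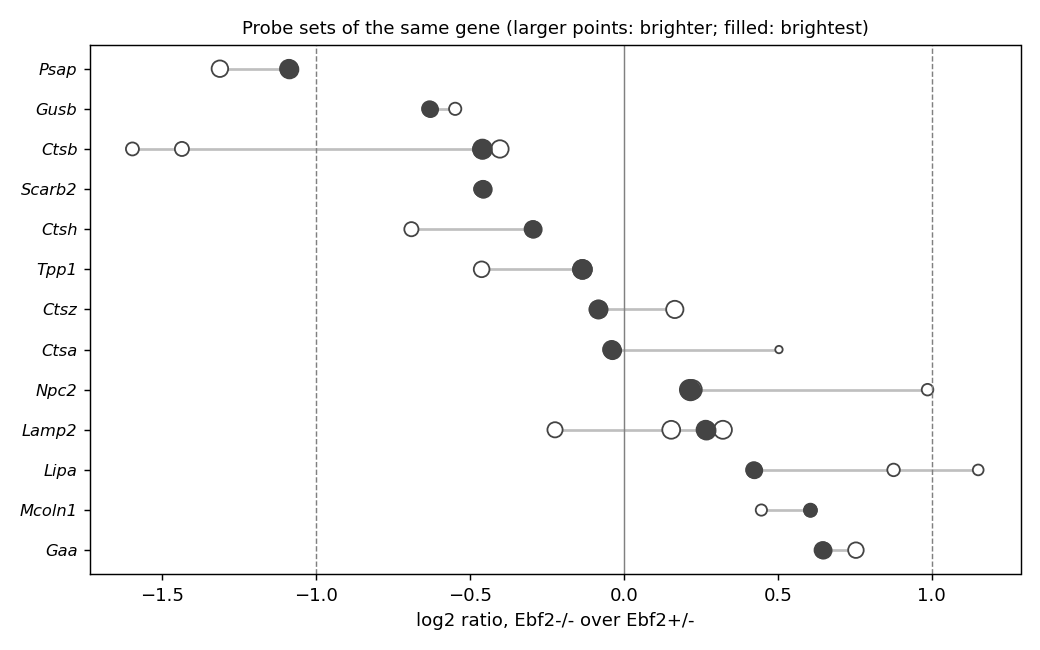
Log2 ratio of Ebf2-/- over Ebf2+/- signal for each probe set above background on both arrays, for the 13 lysosomal genes with more than 1 such probe set; filled points are the brightest probe set, larger points are brighter, and dashed lines mark the 2-fold size. Ctsb spreads from -1.60 to -0.40 and Lipa from 0.42 to 1.15, while the probe sets of Scarb2 coincide.

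Glycosidases, which remove sugars from glycoproteins and glycolipids, were split between small differences in both directions. None of the 7 passed 2-fold, which 9.76% of all measured genes did in either direction. The median log2 ratio of the glycosidases was -0.02, also when the probe sets above the floor on both arrays were averaged. It was 0.27 when all probe sets of a gene were averaged, which includes those below a floor. Hexa, the alpha subunit of beta-hexosaminidase, read 1208 in Ebf2-/- and 1226 in Ebf2+/- cells. Glb1, the cell's own lysosomal beta-galactosidase, read 256 in Ebf2-/- and 212 in Ebf2+/- cells (log2 ratio 0.27). Glb1 is the mammalian enzyme with the same activity as the lacZ product used for sorting, and its signals in the 2 genotypes differed by less than the error between probe sets.

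The largest glycosidase ratios belonged to Gaa and Gusb. Gaa, the acid alpha-glucosidase that breaks down glycogen, read 729 in Ebf2-/- and 466 in Ebf2+/- cells, 1.56-fold higher, and 1.69-fold higher by its other probe set. Gusb, beta-glucuronidase, read 287 in Ebf2-/- and 445 in Ebf2+/- cells, 1.55-fold lower, and its second probe set was 1.46-fold lower. For both genes the probe sets went the same way. Gla, alpha-galactosidase A, was dim at 77.2 in Ebf2-/- and 113 in Ebf2+/- cells, and Neu1, the sialidase, read 82.9 in Ebf2-/- and 78.5 in Ebf2+/- cells. Man2b1, alpha-mannosidase, read 549 in Ebf2-/- and 632 in Ebf2+/- cells by its brightest probe set, but 39.1 in Ebf2-/- and 17.4, under the floor, in Ebf2+/- cells by its other one, so its direction depends on the probe set.

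Of the genes that handle lipids, Psap differed most. Psap encodes prosaposin, the precursor of the saposins, which help glycosidases reach sphingolipids. It read 908 in Ebf2-/- and 1929.6 in Ebf2+/- cells, 2.13-fold lower, and its second probe set read 434 in Ebf2-/- and 1077 in Ebf2+/- cells, 2.48-fold lower. Psap was thus the 1 member past 2-fold whose value was repeated by another probe set above background.

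By their brightest probe sets, Npc2, Npc1 and Asah1 differed by less than the error between probe sets, and Lipa was higher by all of its probe sets. Npc2, the soluble cholesterol-binding protein, read 3977 in Ebf2-/- and 3430.3 in Ebf2+/- cells (log2 ratio 0.21), and 0.22 by its second bright probe set, while a dimmer one read 117 in Ebf2-/- and 59.0 in Ebf2+/- cells (1.98-fold higher). Its partner in the membrane, Npc1, was dim at 72.5 in Ebf2-/- and 92.0 in Ebf2+/- cells (-0.34). Asah1, acid ceramidase, read 1386 in Ebf2-/- and 1229 in Ebf2+/- cells. The 3 probe sets of Lipa, the acid lipase that frees cholesterol from its esters, differed in size. The brightest read 481 in Ebf2-/- and 359 in Ebf2+/- cells (1.34-fold), and the others were 1.84-fold and 2.22-fold higher.

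The membrane proteins were all within 2-fold, with a median log2 ratio of 0.20 over the 4 measured. Among all measured genes, 9.76% were past 2-fold in either direction. Lamp1, an abundant glycoprotein that lines the lysosome, read 3696 in Ebf2-/- and 3347 in Ebf2+/- cells (0.14). Lamp2, its relative with a role in autophagy, read 1749 in Ebf2-/- and 1455 in Ebf2+/- cells (0.27), and its 4 probe sets ranged from -0.22 to 0.32. The 2 LAMP genes thus differed by less than the error between probe sets. Scarb2, which carries glucocerebrosidase to lysosomes, read 575 in Ebf2-/- and 789.8 in Ebf2+/- cells (-0.46 by both of its probe sets). Mcoln1, the calcium channel mucolipin, read 157 in Ebf2-/- and 103 in Ebf2+/- cells, 1.52-fold higher, and its second probe set above background gave 1.36-fold.

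Of other genes of the lysosomal pathway, 70 in a list of which 62 were measured, 2 were at least 2-fold lower in Ebf2-/- and 4 at least 2-fold higher. Among all measured genes 3.46% were at least 2-fold lower and 6.30% at least 2-fold higher, so these counts do not set the pathway apart. The median log2 ratio of the 62 genes was -0.05. The subunits of the proton pump leaned one way by small amounts. Of 14 measured subunits 12 had the lower signal in Ebf2-/- (median -0.35, and from -0.48 to -0.30 over the alternative settings), none by 2-fold (Atp6v1c1 alone with spike-in scaling), and 47.9% of all measured genes had a ratio below 0. Atp6v1c1 had the lowest ratio, with 379 in Ebf2-/- and 739 in Ebf2+/- cells. Atp6v0e read 1719.8 in Ebf2-/- and 2276 in Ebf2+/- cells, while Atp6v0b and Atp6v0a1 had the higher signal in Ebf2-/-. Atp6v0a1 read 109.7 in Ebf2-/- and 46.8 in Ebf2+/- cells, 2.34-fold higher, but under 2-fold when its probe sets were averaged or with a pseudocount of 50.

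Of 21 further hydrolases, 3 passed 2-fold upward in Ebf2-/- and 1 downward (median log2 ratio -0.02). Of all measured genes, 6.30% did so upward and 3.46% downward. Man2b2, an alpha-mannosidase related to Man2b1, read 170.3 in Ebf2-/- and 40.2 in Ebf2+/- cells (4.24-fold higher), and Scpep1, a serine carboxypeptidase, read 1874 in Ebf2-/- and 723 in Ebf2+/- cells (2.59-fold higher). Man2b2 was at least 2-fold higher under every setting run, at log2 ratios from 1.29 to 2.08, but it rests on 1 probe set that is dim in Ebf2+/- cells. That probe set is above both floors, so only the scalings and the pseudocount could change its value. Scpep1 was under 2-fold as a mean over its probe sets (0.72). The others, named after their values were seen, were Dnase2a, a nuclease (137 in Ebf2-/- and 53.4 in Ebf2+/- cells), and Galc, galactosylceramidase, which was lower (67.9 in Ebf2-/- and 174 in Ebf2+/- cells). Dnase2a rests on 1 probe set, whose name ends in _x_at. With a pseudocount of 50 the log2 ratios were 0.85 for Dnase2a and -0.93 for Galc, both under 2-fold. As a mean, Galc was at -0.04 over all its probe sets and at -1.36 over those above the floor on both arrays. Sumf1, which activates sulfatases, was the 1 sorting or tagging gene past 2-fold, with 182 in Ebf2-/- and 380.1 in Ebf2+/- cells (log2 ratio -1.07). It was under 2-fold with a pseudocount of 50 (-0.89), as a mean over its probe sets (-0.87) and without probe sets ending in _s_at, _x_at or _a_at (-0.67). The mannose 6-phosphate receptor M6pr read 696 in Ebf2-/- and 669 in Ebf2+/- cells.

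The regulators and inhibitors were within 2-fold, a size reached by 9.76% of all measured genes. Tfeb was dim, with 51.5 in Ebf2-/- and 29.3 in Ebf2+/- cells, its relative Tfe3 read 332 in Ebf2-/- and 222 in Ebf2+/- cells, and Mitf read 53.5 in Ebf2-/- and 83.5 in Ebf2+/- cells. The 3 relatives thus did not share a direction. Cst3, cystatin C, the secreted inhibitor of cysteine cathepsins, read 5708 in Ebf2-/- and 2884.5 in Ebf2+/- cells, 1.98-fold higher and the largest ratio of the inhibitors.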

How the data were processed

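RNA of Ebf2-/- and Ebf2+/- osteoblastic cells was measured on Affymetrix Mouse Genome 430 2.0 arrays, 1 per genotype. The authors deposited MAS5 signals, an intensity on a linear scale for each probe set, per the submitters' processing notes, which name no MAS5 version. Without the lowest and highest 2% of values, the mean intensity was 100.001 on both arrays, so the authors had scaled them to a common target, which would hide a shift common to most genes. Genes were named from the platform annotation, and where several probe sets stood for a gene, the brightest over both arrays was used. The floor of each array was the 95th percentile of 86 chemosensory receptor probe sets (olfactory, vomeronasal, taste). Genes above it on at least 1 array were called measured, and lower values were set to it before the log2 ratio was taken (Python 3.11.15, pandas 2.3.3). With 1 array per genotype no test was made, the number of arrays limits the precision, and 2-fold is a size, not a call of significance. The procedure was tested on simulated data with large changes in genes well above the floors. That does not check dim genes or differences near 2-fold. The members and lists were chosen with earlier results of these data known. The text accounts for every member. For each role of the other lists the 2 measured genes with the largest ratio and the brightest gene were taken, of which those that matter are printed, with defining markers (Spi1, Csf1r, Itgam, Sp7, Ibsp and the osteoclast markers) and any gene said to be named after its values were seen. Alternatives varied the scaling, the floor, the pseudocount and the choice of probe set.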

Additional observations from a re-analysis of the deposited data

How the results depend on the processing

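The log2 ratios of the lysosomal genes were recomputed under 9 alternatives and under 1 added after seeing the data, and the 5 genes past 2-fold by their brightest probe sets kept their sign. Of the others, 5 took both signs: Man2b1 (from -0.33 to 1.13), Gla (from -0.68 to 0.10), Ctsa (from -0.17 to 0.23), Ctsl (from -0.13 to 0.21) and Neu1 (from -0.05 to 0.31). Ctss and Lgmn were at least 2-fold lower under all of them. Each has 1 probe set, above both floors, so only the scalings and the pseudocount could change their values. Ctsc was not (-0.20) with the mean over all probe sets, where probe sets under both floors enter at the ratio of the floors, 0.42, and Psap has no value without probe sets ending in _s_at, _x_at or _a_at, which left 22 genes. With spike-in scaling, which shifted the median of all measured genes by -0.13, the median was -0.17 over the lysosomal genes, -0.13 without the leukocyte-rich cathepsins and -2.28 over the macrophage and leukocyte markers. With the mean over all probe sets, which shifted the median of all measured genes by 0.10, these were 0.13, 0.17 and -1.75, the leukocyte-rich cathepsins had -0.35, and their difference from the other lysosomal genes was -0.52. Without the 3 kinds of suffixed probe sets the leukocyte-rich cathepsins had -1.45 and the difference was -1.53, because Ctsz has no other probe set. The marker median was -1.72 with a pseudocount of 50 and -1.96 with the mean over probe sets above the floor on both arrays, the added alternative. The count of lysosomal genes at least 2-fold higher was 1, but 0 with spike-in scaling, with a pseudocount of 50 and with the mean over all probe sets, and 2 (Ctsf and Man2b1) without suffixed probe sets. No paired analysis was possible because each genotype has 1 array.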
